A study of Rattus norvegicus with 16 samples.

Results

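The genes described here code for the nuclear-encoded subunits of respiratory complexes I, III, IV and V. They were taken by symbol from the platform annotation. A probe set counted when its single gene symbol began with Nduf and a subunit letter and number, with Uqcr, with Cox4 to Cox8, or with Atp5. The brightest probe set by mean over the 16 arrays stood for each gene. The rule found 75 genes among the 14217 with a probe set of a single symbol: 35 of complex I, 7 of complex III, 17 of complex IV and 16 of complex V. The complex was read from the symbol, so Ndufa4 and its paralog Ndufa4l2 stand with complex I although the Ndufa4 protein is now placed in complex IV. All 75 were tested, with no filter on low values.

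Complex I takes electrons from NADH, complex III passes them from ubiquinol to cytochrome c, and complex IV hands them to oxygen. The proton gradient they build drives complex V, the ATP synthase. Several small subunits of complex IV come in tissue isoforms: a widely expressed form and a form known from heart and skeletal muscle, lung or testis. In the adrenal medulla, chromaffin cells make catecholamines, and hereditary human tumours of these cells include a class with defects of complex II.

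Total RNA was measured on Affymetrix expression arrays as log2 signals. All rats shared a mixed Sprague–Dawley white eye/Wistar–Kyoto strain. The lesions came from rats mutant for p27Kip1, an inhibitor of cyclin-dependent kinases: 8 arrays of adrenal hyperplasia from rats of 2 months, 4 labelled female and 4 male, and 4 arrays of pheochromocytoma, 3 from females of 8 months and 1 from a male of 9 months. The controls were wild-type adrenal medulla. The young wild type was 2 pools at 2 months, pool 1 of 2 animals labelled male and pool 2 of 3 animals labelled female. The older wild type was pool 1 of 2 females of 10 months and pool 2 of 2 males of 12 and 17 months. A pool averages over its animals. The labels do not say whether a mutant array held 1 animal.

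Over all probe sets the correlation was 0.981 to 0.996 within a group and 0.94 to 0.987 between groups. Of 12 chromaffin markers 11 were measured, with a mean of 12.20 to 13.04 on every array. The 12 measured adrenal cortex markers were also bright, with a mean of 11.96 to 12.32 in the older and 11.57 to 11.73 in the young pools. Their mean was 10.41 to 11.19 in hyperplasia and 10.22 to 11.60 in pheochromocytoma. Bright chromaffin markers alone thus do not show that an array held medulla only. Xist, which is transcribed from the inactive X chromosome, went against the labelled sex on 6 arrays: 4 hyperplasia arrays and both young pools. The older arrays matched their labels. The 3′ minus 5′ difference of the hexokinase control, a sign of RNA or labelling quality, was 1.07 to 1.18 in young wild type and 1.21 to 1.63 in hyperplasia. It was 2.29 to 2.92 in older wild type and 2.16 to 3.30 in pheochromocytoma, so it moved with the young and older sets of arrays. Differences below are log2 differences ± standard error from 1 limma fit over the 16 arrays with labelled sex as a covariate. An adjusted p (Benjamini-Hochberg over 31042 probe sets) under 0.05 passed.

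Cox8b and Cox4i2, 2 tissue isoforms of complex IV, had the largest differences among the 75 genes in pheochromocytoma. Against older wild-type medulla, pheochromocytoma had less Cox8b, more Cox4i2 and more Ndufa4l2, while the widely expressed partners Cox8a, Cox4i1 and Ndufa4 did not pass the test. The hyperplasia arrays had more Ndufa4l2 than young wild type.

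**Figure D1:**
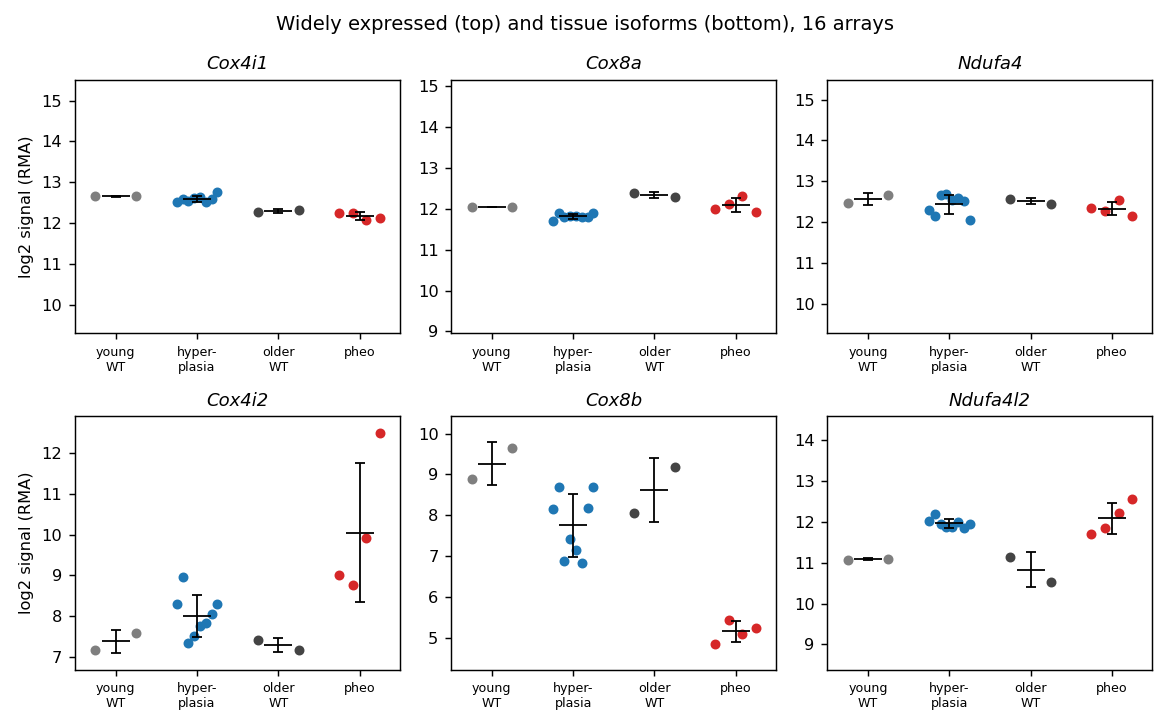
Log2 signal of 3 widely expressed subunit genes (top row) and their tissue isoform or paralog (bottom row) on 16 arrays. Points are arrays, the horizontal mark and bar are the group mean ± SD, and each panel has its own axis. Cox8b lay at 4.85 to 5.45 on the 4 pheochromocytoma arrays and at 6.83 or above on the other 12, and Ndufa4l2 was higher in both mutant groups than in either wild type.

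Cox8b codes for the heart and muscle form of subunit 8, the smallest subunit of complex IV. Its log2 signal was 8.06 and 9.18 in the older pools and 4.85, 5.45, 5.11 and 5.23 in pheochromocytomas 1 to 4. All tumours lay below both pools, with a gap wider than either group's own range. The difference was -3.45 ± 0.53, a 10.95-fold decrease (95% interval -4.57 to -2.33, limma adjusted p = 0.00132). The first quartiles of the tumour arrays were 4.86 to 4.88. Tumour 1 thus lay below its array's first quartile and the others not far above, so the size of the fold is uncertain. The fall was also seen against hyperplasia, whose 8 arrays lay at 6.83 to 8.70 (median 7.79): -2.59 ± 0.38, adjusted p = 6.86e-05. Hyperplasia in turn lay below the young pools at 8.89 and 9.64 on every array, but its difference of -1.51 ± 0.47 missed the threshold (adjusted p = 0.0678). It passed when the Xist level replaced the labelled sex (-1.54, adjusted p = 0.00275).

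Cox4i2 codes for the lung form of subunit 4, known from oxygen-sensing cells and from pericytes. Its log2 signal was 7.41 and 7.17 in the older pools and 9.02, 8.76, 9.91 and 12.49 in pheochromocytomas 1 to 4. The groups did not overlap, and tumour 4 stood above the other tumours. The difference was 2.89 ± 0.70 (7.415-fold, adjusted p = 0.0157). Without tumour 4 it was 1.87 (adjusted p = 0.0195), and without older pool 2 it did not pass (2.47, adjusted p = 0.207). Hyperplasia spanned 7.35 to 8.96 (median 7.95) and overlapped the young pools at 7.18 and 7.59, with a difference of 0.63 ± 0.64 (adjusted p = 0.614).

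Rgs5, from a list of 10 pericyte and smooth muscle markers, moved with Cox4i2. It was 8.28 and 8.20 in the older pools and 9.65, 9.09, 10.27 and 11.75 in tumours 1 to 4, the same order of tumours as Cox4i2. In hyperplasia Rgs5 was at 9.49 to 10.45, a range that holds tumours 1 and 3, while every hyperplasia array but 1 had less Cox4i2 than any tumour. In pheochromocytoma against older wild type Rgs5 was the single one of the 10 listed genes past the threshold (2.08 ± 0.44, adjusted p = 0.00786). Of the 10 differences 3 were negative, down to -0.52, and for 2 of these genes all tumours lay below both pools (median of the list 0.35). The 10 genes summed to 76.8 to 77.8 in older wild type, 77.8 to 85.3 in pheochromocytoma, 82.5 to 82.8 in young wild type and 81.9 to 86 in hyperplasia, and none was dim in every array of a group. With the list's mean as a covariate, chosen after the data were seen, the Cox4i2 difference was 1.52 (adjusted p = 0.189), and that of Cox8b was -3.83 (adjusted p = 0.00933). In bulk tissue a change in the share of a cell type and a change of RNA per cell cannot be told apart.

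Ndufa4l2 is a paralog of Ndufa4 and a known target of hypoxia-inducible factors. In hyperplasia its log2 signal ran from 11.85 to 12.20 (median 11.95), against 11.07 and 11.10 in the young pools. In pheochromocytoma it was 11.71, 11.85, 12.23 and 12.55, against 11.13 and 10.53 in the older pools. Every mutant array lay above every wild-type pool. The difference was 0.88 ± 0.19 in hyperplasia (1.835-fold, adjusted p = 0.0113) and 1.25 ± 0.21 in pheochromocytoma (2.38-fold, adjusted p = 0.00201). Neither young pool could be left out without losing the first call (adjusted p = 0.103 without pool 1 and 0.132 without pool 2), and the second was lost without older pool 2 (0.93, adjusted p = 0.0695). Between pheochromocytoma and hyperplasia the difference was 0.12 ± 0.15, with a 95% interval from -0.19 to 0.43.

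The partner genes in these families differed less. In pheochromocytoma against older wild type, Cox4i1 differed by -0.12 ± 0.10 (95% interval -0.33 to 0.09), Cox8a by -0.26 ± 0.11 (-0.49 to -0.03, adjusted p = 0.131) and Ndufa4 by -0.21 ± 0.17 (-0.58 to 0.16). Taken within each array, the shift of Cox8b minus Cox8a between those groups was -3.21, that of Cox4i2 minus Cox4i1 was 2.88, and that of Ndufa4l2 minus Ndufa4 was 1.44. Cox7a1, the heart and muscle form of subunit 7a, was 5.99, 5.99, 6.21 and 5.61 in the tumours and 6.55 and 6.81 in the older pools. Its groups did not overlap, and its widely expressed relative Cox7a2l differed by 0.15 (adjusted p = 0.384). Cox7a2, the other form of subunit 7a, was not among the 75 genes. The Cox7a1 difference of -0.77 ± 0.26 missed the threshold (adjusted p = 0.0593). It passed with quantile normalization (-0.87, adjusted p = 0.0341) and with arrays centred on their medians (-0.84, adjusted p = 0.0453).

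The muscle form Cox6a2 and the testis form Cox7b2 were among the values under an array's first quartile on each of the 16 arrays, so no change in them could be read here. Cox6b2, the testis form of subunit 6b, differed by -0.01 ± 0.13 in hyperplasia and 0.09 ± 0.14 in pheochromocytoma. It lay at 4.86 to 5.49, close to the first quartiles of the arrays (4.71 to 4.93), so a change in it may be missed. Its partner Cox6b1 differed by 0.01 ± 0.09 and -0.08 ± 0.11. None of these 4 differences passed. Muscle and fat were looked for beside Cox8b, since its product is known there. All 14 striated muscle markers were measured, and 7 to 10 of them lay below the first quartile on every array of a group, depending on the group. The 14 summed to 70.9 to 71 in older wild type and 67 to 69.5 in pheochromocytoma, and Myh1 and Actn2 were lower (-0.86 ± 0.22, adjusted p = 0.0196, and -0.94 ± 0.21, adjusted p = 0.0092). The 7 brown adipocyte markers summed to 35.7 to 39 in older wild type and 34.5 to 35.9 in pheochromocytoma, with 6 of the 7 differences negative (median -0.25, lowest -1.13) and all tumours below both pools for 3. The single one past the threshold, Prdm16, was higher (0.50 ± 0.16, adjusted p = 0.0485). Ucp1, which defines brown fat, was 4.38 and 5.03 in the older pools and 4.00 to 4.46 in the 4 tumours. Of the 8 general adipocyte markers, Adipoq and Cidec were lower in pheochromocytoma (-1.09 ± 0.24, adjusted p = 0.00946, and -0.60 ± 0.14, adjusted p = 0.0142). The other markers of that list did not pass. Of the 8 differences 5 were negative (median -0.25, highest 0.47), and all tumours lay below both pools for 2 genes and above both for 1. The part of any of these cells in the Cox8b result was not tested.

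The 250 bases before the annotated gene start are shown for both isoform pairs whose promoter was found, because only 1 partner of each pair passed in pheochromocytoma. Sequences are from RefSeq on the rat build GRCr8, read 5′ to 3′ on the gene's strand. Capitals mark ACGTG on either strand, a form of the core that hypoxia-inducible factors bind. Other forms of that core were not searched for.
Cox8b, chr1:205408274-205408523, minus strand: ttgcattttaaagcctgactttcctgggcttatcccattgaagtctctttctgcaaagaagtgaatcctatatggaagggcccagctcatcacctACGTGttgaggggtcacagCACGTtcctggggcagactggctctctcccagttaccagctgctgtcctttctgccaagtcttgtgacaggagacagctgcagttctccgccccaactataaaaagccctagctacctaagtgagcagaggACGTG
Cox8a, chr1:213833624-213833873, minus strand: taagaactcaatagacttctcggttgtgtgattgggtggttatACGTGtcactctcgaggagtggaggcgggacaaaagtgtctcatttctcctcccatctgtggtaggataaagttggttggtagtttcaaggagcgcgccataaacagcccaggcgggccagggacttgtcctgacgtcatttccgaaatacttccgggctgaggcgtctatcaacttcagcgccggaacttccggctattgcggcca
Ndufa4l2, chr7:65241919-65242168, plus strand: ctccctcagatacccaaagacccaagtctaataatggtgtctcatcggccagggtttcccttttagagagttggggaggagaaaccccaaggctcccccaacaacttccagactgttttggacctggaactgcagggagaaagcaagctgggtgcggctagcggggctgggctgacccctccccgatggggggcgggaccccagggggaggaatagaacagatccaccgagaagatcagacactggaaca
Ndufa4, chr4:40975560-40975809, minus strand: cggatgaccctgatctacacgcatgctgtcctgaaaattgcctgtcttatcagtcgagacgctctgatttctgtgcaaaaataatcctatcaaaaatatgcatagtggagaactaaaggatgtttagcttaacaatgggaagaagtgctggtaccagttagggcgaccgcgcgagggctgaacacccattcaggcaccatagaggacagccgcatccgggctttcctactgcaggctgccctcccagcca

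The letters ACGTG occurred 3 times in the Cox8b window, 1 time in that of Cox8a, and 0 times in those of Ndufa4l2 and Ndufa4. The windows of Cox8b and Ndufa4l2 held 4 and 6 CpG dinucleotides, against 15 and 10 for Cox8a and Ndufa4. Promoters were matched for 67 of the 75 genes. ACGTG was found in 17 of those 67 (25.4%) and in 16.9% of all 27457 promoters of the same length. GCGCATG, part of the site of the nuclear respiratory factor NRF1, was in 9 of 67 (13.4%) against 3.5% of all. CCGGAAG, a core of ETS family factors that include GABP, was in 17 of 67 (25.4%) against 7.7%. All searches covered both strands, and no motif contains another. The subunit promoters also held more CpG dinucleotides, with a median of 15 against 6. A match is a string of letters and not a shown binding site.

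Across all complexes, pheochromocytoma differed from older wild type in 12 of 75 genes: 2 were higher and 10 lower. That is 16%, beside 15.3% of all 14217 genes called in this comparison (8.85% higher and 6.49% lower). The median difference of the 75 genes was -0.17, against 0.00 over all genes, and 61 of the 75 differences were negative. All 4 tumours lay below both pools for 36 of the 75 genes, against 19.6% of all genes, and above both for 7, against 22.7%. Among genes with a mean signal of 10 or more, 10 of 64 members were called (15.6%), against 20.3% of the 1927 genes that bright. The median stayed negative in each of the complexes under quantile normalization, median centring and the cortex covariate. With each array centred on its median 19 were called, 2 higher and 17 lower.

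**Figure D2:**
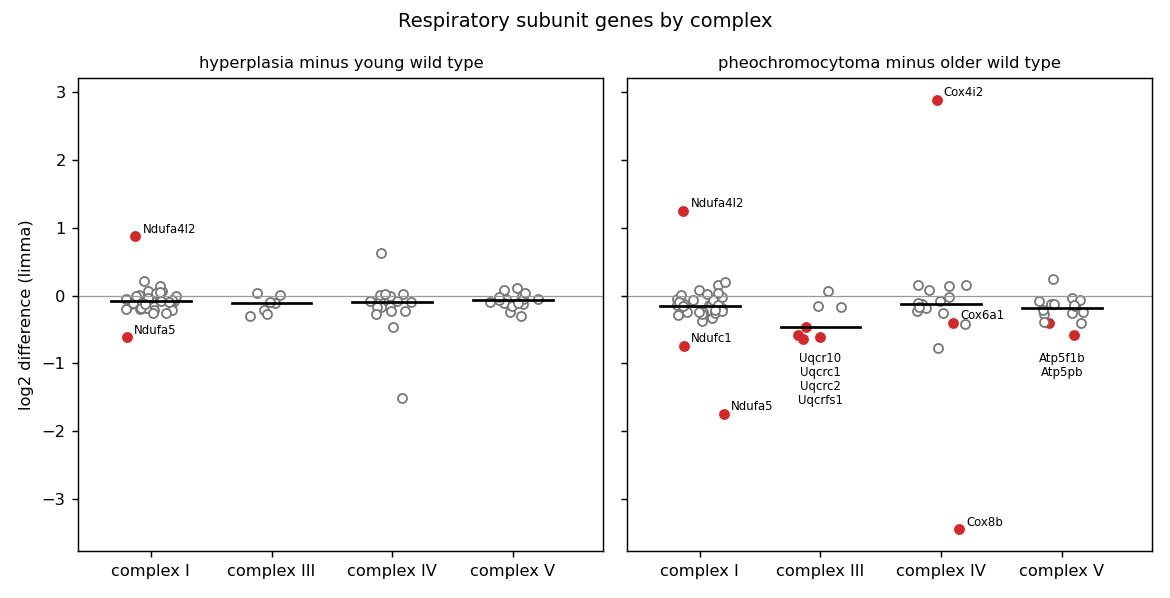
Log2 difference of each subunit gene by complex, for hyperplasia minus young wild type (left) and pheochromocytoma minus older wild type (right). Each point is a gene, red points passed an adjusted p of 0.05 in limma and are named, and black lines are medians. Most points lie slightly below 0, and Cox8b, Cox4i2, Ndufa5 and Ndufa4l2 stand far from the rest on the right.

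Adrenal cortex genes moved with this comparison. The cortex makes steroids, and 12 of 17 listed cortex markers were measured. Star, the steroidogenic acute regulatory protein, was 13.66 and 13.82 in the older wild-type arrays labelled as medulla. The 12 markers summed to 143.5 to 147.9 in older wild type and 122.7 to 139.2 in pheochromocytoma. In young wild type they summed to 138.8 to 140.8 and in hyperplasia to 124.9 to 134.2. In pheochromocytoma 7 of the 12 were lower and none higher (median -1.02), and in hyperplasia 2 were lower (median -0.72). With the mean of the markers as a covariate, Ndufa5 (-1.35, adjusted p = 0.0379) alone of the 12 subunit genes still passed in pheochromocytoma. The other 11 kept their direction. Cox8b was then -2.64 (adjusted p = 0.193), Cox4i2 1.47 (adjusted p = 0.581) and Ndufa4l2 0.74 (adjusted p = 0.283). Ndufc1 was -0.59, Uqcrfs1 -0.49, Atp5pb -0.54 and Atp5f1b -0.33, while Uqcrc2 was -0.44, Cox6a1 -0.30, Uqcr10 -0.26 and Uqcrc1 -0.17.

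Complex I had 3 of 35 genes past the threshold in pheochromocytoma, Ndufa4l2 higher and Ndufa5 and Ndufc1 lower, with a median of -0.15. Ndufa5 belongs to the Q module, the part of the peripheral arm where ubiquinone is reduced. Its log2 signal was 11.09 and 11.83 in the older pools and ran from 9.43 to 9.90 in the tumours (9.66 ± 0.19, SD, n = 4). Every tumour lay more than 1 log2 unit below both pools. The difference was -1.75 ± 0.17, a 3.363-fold decrease (adjusted p = 0.000124). It was -1.35 with the cortex covariate (adjusted p = 0.0379). It also passed under the other alternatives, and with single arrays left out it lay between -2.08 and -1.46.

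Ndufc1 is a small subunit of the membrane arm, which pumps protons. Its log2 signal was 10.94 and 11.19 in the older pools and 10.21 to 10.41 in the tumours. The groups did not overlap, and the difference was -0.74 ± 0.10 (1.671-fold decrease, adjusted p = 0.000897). It passed in every setting but the cortex covariate (-0.59, adjusted p = 0.153). By module, 1 of 4 genes of the Q module passed with a median of -0.28, and 1 of 19 of the membrane arm with a median of -0.14. None of the 10 of the N module, where NADH is oxidized, passed, with a median of -0.18. Complex I genes without a listed module, other than Ndufa4 and Ndufa4l2, were counted with the membrane arm. Its 19 genes, Ndufa9 among them, are therefore not all certain members, and the medians by module are approximate.

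Complex III had 4 of 7 genes lower and a median of -0.46. In older against young wild type its median was 0.11, with 0 of the 7 differences negative. In pheochromocytoma against hyperplasia its median was -0.06. Uqcrc1 and Uqcrc2 code for the core proteins that face the matrix, Uqcrfs1 for the Rieske iron-sulfur protein that takes part in electron transfer, and Uqcr10 for a small subunit. Uqcrfs1 was 11.11 and 11.37 in the older pools and 10.65, 10.73, 10.63 and 10.59 in the tumours, with a difference of -0.58 ± 0.12 (adjusted p = 0.00702). Uqcrc2 was 11.19 and 11.54 against 10.66, 10.83, 10.76 and 10.55 (-0.64 ± 0.18, adjusted p = 0.03). For both genes every tumour was below both pools. A second, dimmer probe set of Uqcrc2 was also lower (-0.72, adjusted p = 0.0309).

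Uqcrc1 was 11.26 and 11.51 in the older pools and 10.98, 10.98, 11.01 and 10.77 in the tumours (-0.46 ± 0.13, adjusted p = 0.0257). Uqcr10 was 12.80 and 13.17 against 12.58, 12.48, 12.31 and 12.17 (-0.61 ± 0.15, adjusted p = 0.0162). The groups did not overlap for either gene. The other members of the complex did not pass: Uqcrh at -0.17 ± 0.12, Uqcr11 at -0.15 ± 0.11 and Uqcrq at 0.07 ± 0.09. These calls rested on few arrays. Without older pool 2 none of the 4 passed (adjusted p from 0.151 for Uqcrfs1 to 0.352 for Uqcrc1), and without tumour 4 Uqcrfs1 alone did (-0.53, adjusted p = 0.0298). The median of the complex was -0.17 with the cortex covariate.

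**Figure D3:**
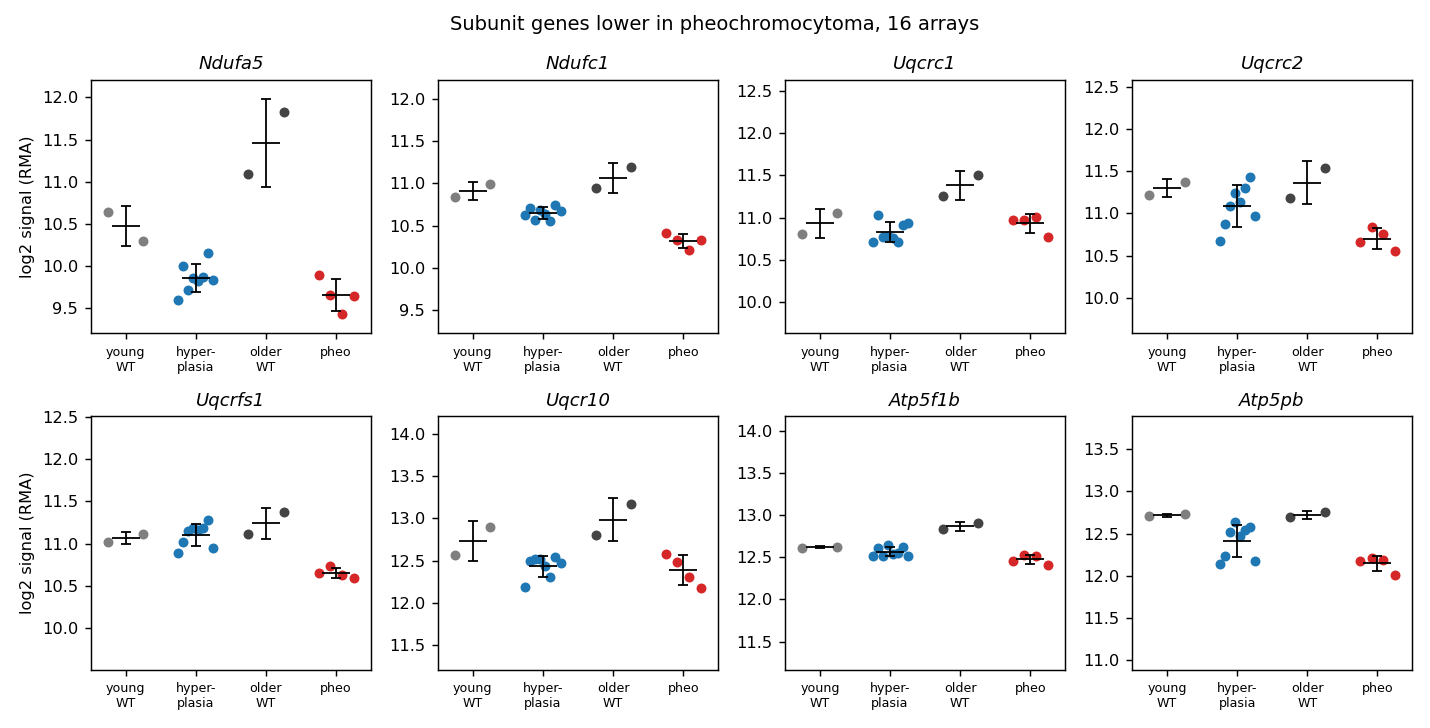
Log2 signal of 8 subunit genes lower in pheochromocytoma than in older wild type. Points are arrays, the horizontal mark and bar are the group mean ± SD, and each panel has its own axis. The tumours lie below both older pools in each panel, and for Ndufa5 the older pools, at 11.09 and 11.83, lie above every other array.

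Beside the isoforms, complex IV had 1 more call in pheochromocytoma and complex V had 2. Cox6a1, the widely expressed form of subunit 6a, was 12.47 and 12.54 in the older pools and 12.00 to 12.25 in the tumours (-0.41 ± 0.10, adjusted p = 0.0202). Atp5f1b codes for the catalytic beta subunit of the ATP synthase, and was 12.83 and 12.91 against 12.41 to 12.52 (-0.40 ± 0.09, adjusted p = 0.00935). Atp5pb codes for subunit b of the peripheral stalk, and was 12.69 and 12.75 against 12.01 to 12.21 (-0.58 ± 0.14, adjusted p = 0.0184). All tumours lay below both pools for these 3 genes. The median was -0.12 over the 17 genes of complex IV and -0.18 over the 16 of complex V. Just outside the threshold were Ndufa7 (-0.37, adjusted p = 0.0502) and Atp5mc3, a gene for the c ring (-0.40, adjusted p = 0.0556). None of Cox6a1, Atp5f1b and Atp5pb passed without older pool 2 (adjusted p of 0.239, 0.15 and 0.183), and Cox6a1 and Atp5pb did not without tumour 4 (0.0706 and 0.0682).

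In hyperplasia against young wild type 2 of 75 genes passed, Ndufa4l2 higher and Ndufa5 lower. That is 2.67%, beside 8.5% of all genes (5.16% higher and 3.33% lower). The median was -0.08 against -0.01 over all genes, and 58 of the 75 differences were negative. All 8 hyperplasia arrays lay below both pools for 11 of the 75 genes, against 10.9% of all genes, and above both for 2, against 12.7%. The medians were close between complexes, at -0.08 for complex I, -0.10 for III, -0.09 for IV and -0.06 for V. They stayed negative with each scaling tried.

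Ndufa5 was 10.64 and 10.30 in young pools 1 and 2 and ran from 9.60 to 10.15 in hyperplasia (median 9.85). The groups did not overlap, and the difference was -0.62 ± 0.16 (1.532-fold decrease, adjusted p = 0.029). It lost the call without either young pool (adjusted p = 0.224 and 0.164) and with the cortex covariate (-0.35, adjusted p = 0.417). Without the 4 hyperplasia arrays whose Xist went against their label, an alternative chosen after the data were seen, Ndufa5 stood at -0.58 (adjusted p = 0.167) and Ndufa4l2 at 0.82 (adjusted p = 0.0738). Within hyperplasia some of the 75 genes did not overlap between arrays of low and high Xist, at a smaller share than of all genes. On the 4 arrays with low Xist Cox8b ran from 8.16 to 8.70, and on the 4 with high Xist from 6.83 to 7.41. Cox4i2 ran from 8.07 to 8.96 and from 7.35 to 7.84, while Ndufb8 went the other way, at 7.80 to 8.23 and 8.48 to 8.59. In all 9 of the 75 genes (12%) did not overlap, 4 higher with low and 5 with high Xist, against 17.6% of all genes (8.93% and 8.63%). Cidea, a brown fat marker, was at 8.50 to 9.61 with low and 7.21 to 7.64 with high Xist, and Ucp1 overlapped at 4.20 to 4.57 and 4.33 to 4.49. These arrays were separated by a measured level and not by a label, so no test was made.

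In complexes III and V the smallest p-values belonged to Uqcrh (-0.27 ± 0.10, adjusted p = 0.128), Uqcr10 (-0.30 ± 0.14, adjusted p = 0.201), Atp5pb (-0.31 ± 0.13, adjusted p = 0.178) and Atp5mc3 (-0.24 ± 0.12, adjusted p = 0.237). None of them passed.

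Whether the pheochromocytoma difference was larger than the hyperplasia difference was tested directly. In limma 0 of the 75 genes passed, beside 0.00703% of all genes, and 10 of the 75 (13.3%) had an unadjusted p under 0.05, against 10.3% of all genes. Ndufa5 had the smallest p of complex I, with a difference of -1.13 ± 0.24 (95% interval -1.64 to -0.63, adjusted p = 0.168). Its levels in pheochromocytoma and hyperplasia overlapped and differed by -0.15 (adjusted p = 0.378), while the older pools were 0.99 above the young ones. Cox8b differed by -1.94 ± 0.71 (-3.45 to -0.43, adjusted p = 0.34) and Cox4i2 by 2.26 ± 0.95 (0.24 to 4.28, adjusted p = 0.405). Uqcrfs1 differed by -0.61 ± 0.16 (adjusted p = 0.211), Ndufc1 by -0.48 ± 0.14 (adjusted p = 0.253) and Atp5f1b by -0.35 ± 0.12 (adjusted p = 0.311). With older pool 1 left out 1 of the 75 passed, Ndufa5 (-1.46, adjusted p = 0.011). None passed with any other array left out or under the other alternatives.

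Pheochromocytoma and hyperplasia differ in age as well as in lesion. Their hexokinase 3′ minus 5′ differences also did not overlap, at 2.16 to 3.30 and 1.21 to 1.63. Lesion, age and RNA or labelling quality cannot be told apart in their direct comparison. Of the 75 genes 30 passed, 10 higher and 20 lower in pheochromocytoma. That is 40%, beside 33.8% of all genes (14.6% higher and 19.2% lower). Among genes with a mean signal of 10 or more, 23 of 64 members were called (35.9%), against 38.7% of the 1927 genes that bright. Of those 64 members 17 were lower and 6 higher, and of the 1927 genes 578 were lower and 168 higher. Arrays of the groups did not overlap for 8 genes higher and 12 lower, against 9.28% and 13% of all genes. Quantile normalization of the 16 arrays turned the split to 15 higher and 13 lower of 28 called.

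Cox5a codes for subunit 5a of complex IV, which sits at its matrix side. In hyperplasia its log2 signal ran from 6.89 to 7.31 (7.09 ± 0.12, SD, n = 8), and in pheochromocytoma it was 8.63 ± 0.13 (SD, n = 4). The young pools were at 7.22 and 7.29 and the older pools at 8.81 and 8.88. So the older arrays of both genotypes were high and the young arrays of both were low. The difference of pheochromocytoma from hyperplasia was 1.53 ± 0.08 (2.88-fold, adjusted p = 5.19e-09) and that of older from young wild type was 1.59 ± 0.14 (3.01-fold, adjusted p = 2.08e-06). Against its own age set it differed by -0.16 ± 0.11 in hyperplasia and -0.23 ± 0.12 in pheochromocytoma, and neither passed. The hexokinase 3′ minus 5′ difference separates the arrays the same way, and its part was not tested.

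Of complex I, 9 of 35 genes were lower in pheochromocytoma than in hyperplasia and 2 higher. In the N module 5 of 10 were lower, among them Ndufv1, which carries the NADH site (-0.38 ± 0.08, adjusted p = 0.002), Ndufs1, which holds iron-sulfur clusters (-0.36 ± 0.08, adjusted p = 0.00282), and the accessory Ndufv3 (-0.39 ± 0.09, adjusted p = 0.00298). All tumours lay below all hyperplasia arrays for these 3 genes. Ndufv1, for example, was at 10.51 to 10.61 against 10.76 to 11.08 (median 10.98). Ndufb8 of the membrane arm was lower by more (-0.47 ± 0.14, adjusted p = 0.0129), but its groups overlapped. Ndufa3 (0.36 ± 0.10, adjusted p = 0.00969) and Ndufs4 (0.23 ± 0.09, adjusted p = 0.0457) were higher, with overlap in both. The Ndufs4 call was lost in 7 of 13 alternatives and with 12 of the 16 arrays left out in turn (lowest 0.17).

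Of complex III, Uqcrfs1 (-0.44 ± 0.09, adjusted p = 0.000893) and Uqcrc2 (-0.36 ± 0.13, adjusted p = 0.0351) were lower and Uqcrq, a small subunit, was higher (0.25 ± 0.07, adjusted p = 0.00732). Of complex IV, Cox4i1 was lower (-0.42 ± 0.07, adjusted p = 0.00021) and Cox4i2 higher (2.17 ± 0.50, adjusted p = 0.00308), though tumours at 8.76 to 12.49 overlapped hyperplasia at 7.35 to 8.96. Without tumour 4 Cox4i2 was 1.15 higher and still passed. Cox6a1 (0.30 ± 0.07, adjusted p = 0.00497) and Cox6c-ps1 (0.40 ± 0.10, adjusted p = 0.00578) were higher. Cox6c-ps1 is a pseudogene close to Cox6c, so its signal is uncertain. Of complex V, Atp5po of the peripheral stalk (-0.40 ± 0.08, adjusted p = 0.000901), Atp5mf (-0.39 ± 0.08, adjusted p = 0.000842), Atp5mg (-0.38 ± 0.13, adjusted p = 0.0274) and the gamma subunit gene Atp5f1c (-0.34 ± 0.08, adjusted p = 0.00309) were lower. The groups overlapped for Uqcrc2 and Atp5mg. With single arrays left out in turn, the Uqcrc2 call held in 11 of 16 fits and the Atp5mg call in 12 of 16. Both calls were lost with quantile normalization. The Atp5po call was lost with the mean of its probe sets (-0.14, adjusted p = 0.118). Its dimmer probe set, with a mean signal of 4.94, differed by 0.11. Atp5mpl was higher (0.29 ± 0.07, adjusted p = 0.00562). Atp5if1, the ATP synthase inhibitor, was among the genes called lower (-0.26 ± 0.09, adjusted p = 0.0391), but its dimmer probe sets differed by 0.70 and 0.14, and the mean of its probe sets was higher (0.20, adjusted p = 0.0308), so it has no settled direction.

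**Figure D4:**
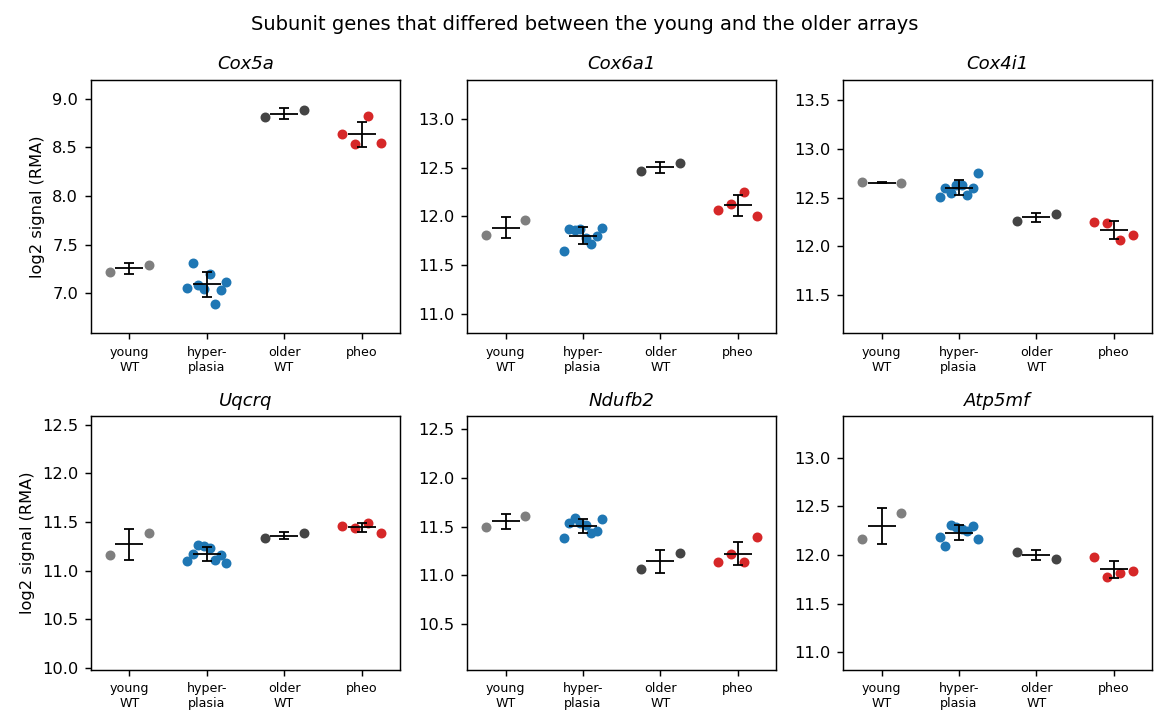
Log2 signal of 6 subunit genes called between pheochromocytoma and hyperplasia in limma. Between older and young wild type Cox5a, Cox6a1, Cox4i1 and Ndufb2 also passed. Uqcrq (0.09, adjusted p = 0.592) and Atp5mf (-0.30, adjusted p = 0.0877) did not pass there. Points are arrays, the horizontal mark and bar are the group mean ± SD, and each panel has its own axis. Cox5a lies between 6.89 and 7.31 on the 10 young arrays and at 8.53 or above on the 6 older ones, whatever the genotype.

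Between older and young wild type, which differ in age by design, 7 of 75 genes passed, 5 higher and 2 lower in the older pools. That is 9.33%, beside 21.1% of all genes (8.45% higher and 12.7% lower). The groups did not overlap for 23 genes higher and 19 lower, against 26% and 33.8% of all genes. Beside Cox5a, the older pools had more Cox6a1 (0.62 ± 0.12, adjusted p = 0.00181), Ndufa5 (0.99 ± 0.20, adjusted p = 0.00264), Cox6c-ps1 (0.54 ± 0.16, adjusted p = 0.0251) and Uqcrc1 (0.45 ± 0.14, adjusted p = 0.0332). They had less Ndufb2 (-0.41 ± 0.12, adjusted p = 0.0222) and less Cox4i1 (-0.36 ± 0.11, adjusted p = 0.0315). Most of these calls rested on single pools. Cox4i1 did not pass without any 1 of the 4 pools (adjusted p of 0.0984 to 0.132), nor Ndufb2 without either older pool or young pool 2 (0.0503 to 0.175). Uqcrc1 did not without older pool 2 or either young pool (0.0504 to 0.3), Cox6c-ps1 without older pool 1 or either young pool (0.0976 to 0.174), and Ndufa5 without older pool 2 (0.68, adjusted p = 0.0575). Cox5a and Cox6a1 passed with each array left out. The split was 11 higher and 1 lower with quantile normalization and 8 higher and 1 lower with median centring. This comparison shares the older pools with that of pheochromocytoma: Ndufa5, Cox6a1 and Uqcrc1 were high in those pools in both. The hexokinase 3′ minus 5′ difference also separated the older pools (2.29 to 2.92) from the young pools (1.07 to 1.18), and its part was not tested.

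**Figure D5:**
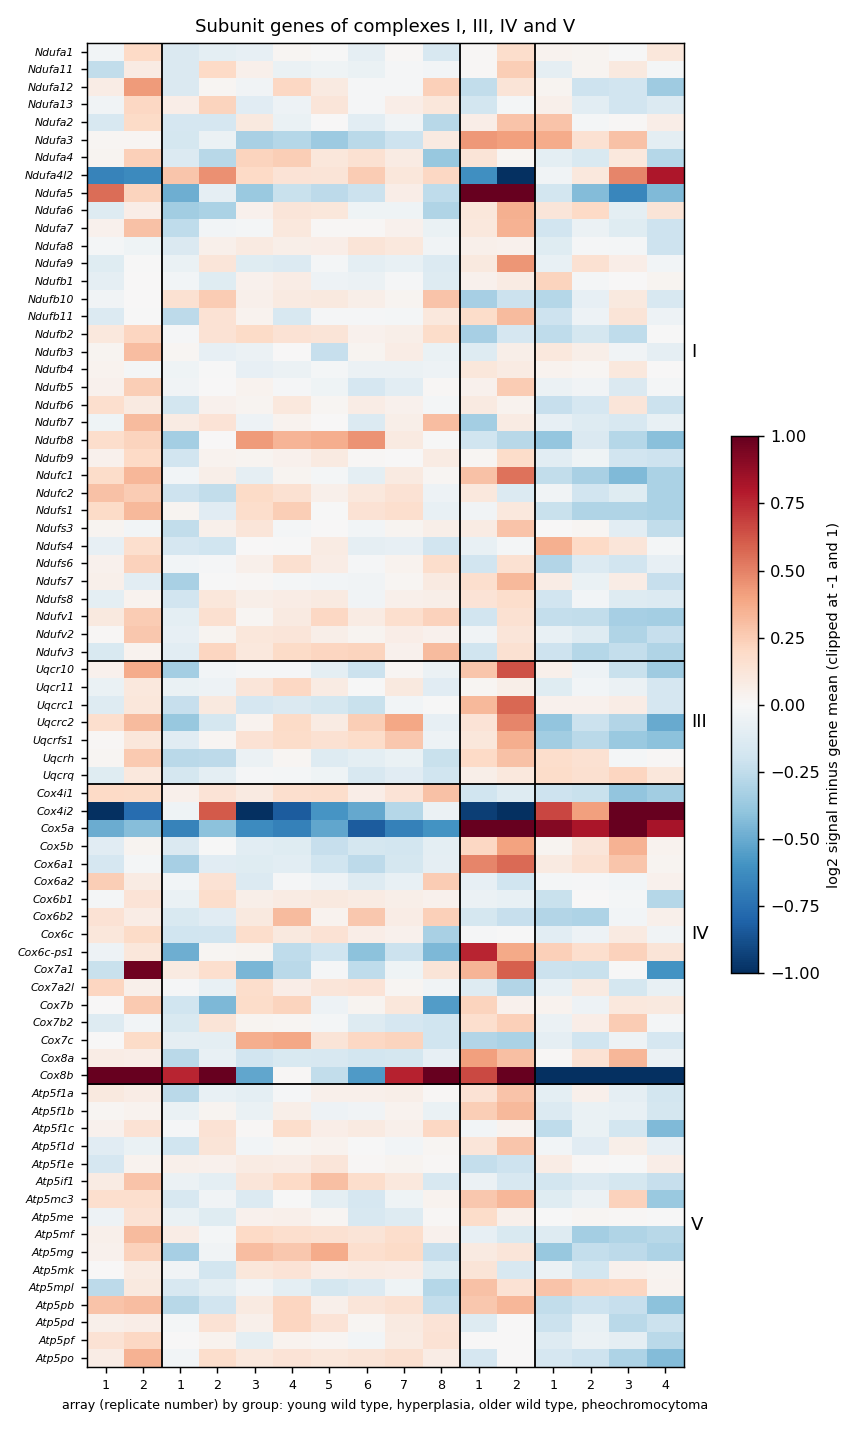
Log2 signal of each of the 75 subunit genes (rows, by complex) on the 16 arrays (columns, by group), minus the gene's mean over the arrays and clipped at -1 and 1. Red is above and blue below the gene's mean. Most rows are pale, and the strong rows are Ndufa4l2, Ndufa5, Cox4i2, Cox5a and Cox8b.

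Genes that work with these complexes were counted from lists. Of all genes 15.3% were called in pheochromocytoma (6.49% lower) and 8.5% in hyperplasia, and the lists are short. Complex II, which is also the Krebs cycle enzyme succinate dehydrogenase, had 3 of 4 genes lower in pheochromocytoma: Sdha at -0.60 ± 0.16 (adjusted p = 0.0207), Sdhb at -0.47 ± 0.13 (adjusted p = 0.0245) and Sdhc, with a median of -0.44. None of the 4 passed in hyperplasia (median -0.25). Of 6 genes for electron carriers and for exchange of phosphate and nucleotides, 3 were lower in pheochromocytoma, among them Etfdh (-0.86 ± 0.23, adjusted p = 0.0244) and Etfa (-0.69 ± 0.15, adjusted p = 0.00909), which feed electrons from fatty acid oxidation to ubiquinone, and 0 passed in hyperplasia. Of 12 genes for other mitochondrial proteins, Hspd1 (-0.77 ± 0.22, adjusted p = 0.0306) and Phb2 (-0.43 ± 0.13, adjusted p = 0.047) were lower in pheochromocytoma (median -0.20), and none passed in hyperplasia.

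Of 12 complex I assembly genes, Nubpl, which delivers iron-sulfur clusters, was 9.44 and 9.98 in the older pools and 7.14 to 8.32 in the tumours. It was lower by -1.98 ± 0.27 in pheochromocytoma (adjusted p = 0.000589) and by -0.95 ± 0.24 in hyperplasia (adjusted p = 0.0272). Acad9 was the other one lower in pheochromocytoma (-0.41 ± 0.12, adjusted p = 0.0341). None of 6 complex III assembly genes passed in either comparison. Of 16 for complex IV, 1 was higher (Cox10, 0.42 ± 0.12, adjusted p = 0.033) and 2 were lower in pheochromocytoma, among them Cox16 (-0.64 ± 0.12, adjusted p = 0.00342). In hyperplasia Cox20 was higher and Coa5 lower. Of 3 for complex V, Tmem70 was lower in pheochromocytoma (-0.60 ± 0.11, adjusted p = 0.00364).

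Of 14 regulators of mitochondrial genes 1 passed in each lesion (7.14%), beside 8.5% of all genes in hyperplasia and 15.3% in pheochromocytoma. Nrip1 was lower in hyperplasia (-0.61 ± 0.17, adjusted p = 0.0373) and Tfb1m higher in pheochromocytoma (0.42 ± 0.11, adjusted p = 0.0206). Of 15 measured targets and partners of hypoxia-inducible factors, 3 were higher and 1 lower in pheochromocytoma (median 0.22), and 1 was higher in hyperplasia (6.67%, median -0.05, 10 of the 15 negative). Epas1, which codes for the factor HIF-2 alpha, rose in both (1.03 ± 0.15 in hyperplasia, adjusted p = 0.00114, and 0.60 ± 0.17 in pheochromocytoma, adjusted p = 0.03). Lonp1, the mitochondrial protease, was lower in pheochromocytoma (-1.15 ± 0.21, adjusted p = 0.00318). Over all genes the median difference was -0.01 in hyperplasia and 0.00 in pheochromocytoma.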

How the data were processed

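The members and gene lists were chosen with earlier results of these data known. Each array gave 1 log2 value per probe set, deposited by the authors, made with RMA per the submitters' processing notes (version not given), which corrects background, normalizes quantiles and summarises probes. The sources used here do not say which arrays shared a normalization run. Of 31099 probe sets 57 controls were left out. Symbols came from the platform annotation: 20826 probe sets had 1 symbol, 436 several and 9780 none, and 20758 matched a rat gene table by Entrez identifier with 0 symbols changed. By the rule, 6 probe sets with several symbols that match the pattern stayed out, and 7 members had more than 1 probe set.

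The model was a limma 3.58.1 fit (R 4.3.3) of all 16 arrays, with 4 groups and labelled sex, two-sided, with 11 residual degrees of freedom and Benjamini-Hochberg adjustment over 31042 probe sets. It gave 5 comparisons: each lesion with wild type of its own age set, the difference of those effects, the lesions with each other, and the wild-type ages with each other. The fit was tested on simulated data. Named genes are, per comparison and complex, up to 4 called members per direction with the largest difference, or the smallest p-values up to 2 where fewer than 2 passed, all measured isoform family members, and up to 2 called genes per list, or else the one with the smallest p. Ndufa7, Atp5if1, Star, Ucp1, Cidea and genes named for a count of 5 or fewer fall outside that rule and were chosen after their values were seen. The labels do not say that every array came from a separate animal, so p-values measure the spread between arrays. The number of arrays limits the precision: the median standard error of a member was 0.106 in hyperplasia and 0.117 in pheochromocytoma. Alternatives changed the sex covariate, the arrays, the prior, the filter, the scaling, the probe set rule, marker covariates and the replicate block.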

Additional observations from a re-analysis of the deposited data

Results flagged for a closer look

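In 80 groups of arrays, of 40 named genes in hyperplasia and pheochromocytoma, the outermost array was set against the group's range, and 2 stood apart. Chance gives about 1 in 20. Uqcrc1 was at 10.77 in pheochromocytoma 4, below the other tumours at 10.98 to 11.01, with a gap of 0.864 of the range. Ndufs1 was at 10.19 in pheochromocytoma 1, above the others at 10.09 to 10.11, with a gap of 0.83 of the range.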

How the results depend on the processing

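Counts are of subunit genes called, in the order hyperplasia against young wild type, pheochromocytoma against older wild type, pheochromocytoma against hyperplasia, and older against young wild type (2, 12, 30 and 7 as reported). Of the 51 calls 1 changed direction under an alternative: Atp5if1 in pheochromocytoma against hyperplasia was 0.20 (adjusted p = 0.0308) by the mean of its probe sets, against -0.26 by the brightest. With the cortex covariate the first count was 0 and the second 1. Without the 4 hyperplasia arrays whose Xist went against their label the first was 0. With the pericyte covariate the second was 4 and the fourth 2. With only the arrays compared the second was 3 and the fourth 2. Median centring gave 19 for the second. For the fourth, quantile normalization gave 12, and the intensity trend and the mean of probe sets gave 11 each. Leaving out 1 array at a time gave 0 (without young pool 2) to 3, 3 (without older pool 2) to 14, 22 (without pheochromocytoma 4) to 31, and 3 (without older pool 2) to 8, and 0 to 1 for the difference of effects (1 without older pool 1). Where that left 1 pool, it was assumed to vary like the other groups.

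Same-numbered arrays of different groups correlated in their deviations from the group means at -0.179 to 0.212. Of 4 pheochromocytoma arrays 0 correlated best with the hyperplasia array of its own number. No pairing by number was seen, but so few arrays cannot exclude one. With the replicate block the counts were 0, 3, 12 and 3, and 0 for the difference of effects.

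Of 43 called values of named genes, 21 passed with every single array left out and 10 also under all other alternatives. Leaving out all 6 arrays whose Xist went against the label removes both young pools, so hyperplasia against young wild type, the difference of effects and the age comparison had no value there. The difference of effects was not run on only the arrays compared. No measure of signal over background was used here, so the dim Cox6a2 and Cox7b2 have no readable change.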
